A study of Mus musculus with 14 samples.

Results

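Mitosis requires a set of proteins that a dividing cell makes shortly before and during division. Cdk1, activated by its cyclin partners, starts mitosis. Polo-like and Aurora kinases assemble the spindle, kinetochores attach the chromosomes to its microtubules, and the spindle assembly checkpoint holds back the anaphase-promoting complex until every chromosome is attached. Most of these genes are transcribed together late in the cell cycle, in muscle stem cells (MuSCs, the Pax7-expressing progenitors that repair skeletal muscle) as in other dividing cells.

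The RNA level of 56 mitosis and chromosome segregation genes, their recovery with an antibody against N6-methyladenosine (m6A) and their binding by the RNA-binding proteins Lin28a and Igf2bp3 were compared between control and Lin28a+ mouse MuSCs. The 56 genes were chosen by name for their known roles in mitosis and were matched by symbol to the 14837 genes of the input table. All 56 were listed there and passed the filter on low counts. Of the 56, 34 had an m6A-RIP row, 38 had an Igf2bp3-RIP peak and 36 had a Lin28a-RIP peak.

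Lin28a+ MuSCs were sorted by flow cytometry from skeletal muscle of mice that carried Lin28a-CreERT2 and LSL-tdTomato, a design in which the promoter of Lin28a drives an inducible Cre that switches on a red reporter. The control libraries came from MuSCs that the labels give as genotype control, without a description of how those cells were chosen. Both groups were cultured on plates coated with Matrigel. The sources used here describe no treatment of the cells for these libraries and do not say how the Cre was induced. There were 2 input (RNA-seq), 2 m6A-RIP and 2 Igf2bp3-RIP libraries per group, and 2 Lin28a-RIP libraries of Lin28a+ MuSCs only. The age of the mice and whether the 2 libraries of a group came from separate animals are not given in the sources used here, so p-values measure only the spread between these libraries.

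The summed input values ranged from 4842915 to 6220960 per library, and the RIP libraries held between 9215355 and 36610494 counts in peaks. The myogenic markers Pax7, at 143 and 154 CPM (counts scaled to a fixed library total) in control against 193 and 188 CPM in Lin28a+ libraries, and Myod1, at 4651 and 4713 against 4723 and 4728 CPM, were present in every input library, whereas lists of 8 macrophage and 8 endothelial markers, of which 5 and 3 were listed, summed to at most 3.18 CPM in any library. Markers of pericytes or smooth muscle (6 of 8 listed, without Cspg4 and Kcnj8) summed to 5740 and 5835 CPM in control against 7761 and 7773 CPM in Lin28a+ libraries. Those of fibro-adipogenic progenitors (4 of 8 listed, without Dcn and Lum) summed to 4.46 and 5.44 against 14.2 and 13.3 CPM, and those of Schwann cells (3 of 6, without Sox10) to 77.01 and 78.6 against 125 and 128 CPM. Of the 11 myogenic markers tested, 3 were higher (Pax7, Myog and Cdh15), 5 were lower (Myf5, Des, Vcam1, Sdc4 and Chrna1) and 3 did not pass the test. Of the 5 pericyte or smooth muscle markers tested, Acta2, Notch3 and Pdgfrb were higher and Tagln and Rgs5 were lower, and Acta2, from 5438 and 5401 to 7439 and 7421 CPM, made up most of the sum. The part of these markers in the results was not tested. Myog, which marks myoblasts that begin to differentiate, stood at 766 and 775 CPM in control against 2769 and 2809 CPM in Lin28a+ libraries. Lin28a RNA was not analysed here, so the label of the Lin28a+ libraries was not checked by the RNA of the gene that defines them. Igf2bp3 RNA stood at 11.6 and 10.6 CPM in control against 35.6 and 33.9 CPM in Lin28a+ libraries. In bulk RNA, more cells in mitosis and more RNA per mitotic cell cannot be told apart.

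Promoters are shown because most of these genes hold TTTGAA close to the start, more often than all genes tested do. In such promoters the CCAAT box is the element known to bind the factor NF-Y, and TTTGAA is the core of the cell cycle genes homology region, which is known to bind the DREAM and Foxm1-MuvB complexes. RefSeq windows (GRCm38.p6) from 250 bases before to 50 bases after the start were given for 48 of the 56 genes, as 51 windows. Both motifs were searched on both strands, and the share of all windows that hold each is given below. Cdc20 and Cdk1 are the 2 genes with the smallest RNA p-values among those that hold both motifs. Their windows, chr4:118437294-118437593 and chr10:69352863-69353162, both on the minus strand, read 5′ to 3′ along the gene with each match to either strand in capitals:
Cdc20: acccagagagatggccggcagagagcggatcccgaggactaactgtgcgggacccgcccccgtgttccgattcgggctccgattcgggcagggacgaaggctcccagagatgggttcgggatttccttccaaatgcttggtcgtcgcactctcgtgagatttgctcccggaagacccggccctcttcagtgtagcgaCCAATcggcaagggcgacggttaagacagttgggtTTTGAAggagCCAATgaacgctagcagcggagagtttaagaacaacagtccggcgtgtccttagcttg
Cdk1: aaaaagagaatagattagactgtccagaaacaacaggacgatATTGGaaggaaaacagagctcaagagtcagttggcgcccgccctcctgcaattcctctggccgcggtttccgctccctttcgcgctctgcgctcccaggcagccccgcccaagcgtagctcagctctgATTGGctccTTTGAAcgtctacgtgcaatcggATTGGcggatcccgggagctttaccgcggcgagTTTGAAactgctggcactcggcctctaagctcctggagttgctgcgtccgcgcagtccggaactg
In Cdc20 a TTTGAA began 18 bases before the start and lay between CCAAT boxes that began 53 and 8 bases before it. In Cdk1 the TTTGAA copies began 71 and 15 bases before the start and the ATTGG copies 208, 80 and 48 bases before it.

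TTTGAA was found in 36 of the 51 windows (70.6%), against 11.7% of the 10921 windows of genes tested in RNA and 17.9% of all 32851 windows. Within 50 bases of the start, it was found in 60.8% of the windows of mitosis genes and in 3.04% of those of genes tested in RNA. CCAAT was found in 70.6% against 38.2%, and both motifs together in 58.8% against 4.83%. In 97 windows of other mitosis genes, CCAAT was found in 59.8%, TTTGAA in 35.1% and both in 26.8%. In 18 windows of genes of G1/S and DNA synthesis, these shares were 66.7%, 11.1% and 11.1%. The 27 genes with both motifs included 19 that were higher in RNA and 1 that was lower, and their median log2 fold change was 0.65. The 9 genes with neither motif included 7 that were higher, with a median of 0.60. Of the 6 genes with CCAAT alone, 4 were higher and 2 lower, with a median of 0.58, and of the 6 with TTTGAA alone 1 was higher, with a median of 0.15. A match describes these letters only and is not a test of binding.

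The input libraries were compared to find which mitosis genes differed in RNA level between Lin28a+ and control MuSCs. Of the 56 genes, 38 were higher and 3 were lower in Lin28a+ MuSCs at an adjusted p under 0.05 (edgeR quasi-likelihood test). Over all 11317 genes tested, 28.1% were higher and 28.7% were lower. The log2 fold change was positive for 46 of the 56 genes, and its median was 0.62, against 0.0098 over all genes tested. In the input table, both columns of Lin28a+ MuSCs were headed with m6A-RIP titles and were taken as input because the labels tie that table to the input samples. Across 7950 genes they correlated with control input at Spearman's rho = 0.943 and 0.944, and with the m6A-RIP of Lin28a+ MuSCs at 0.514 and 0.514. All values below are CPM scaled by TMM factors in each of 2 control and 2 Lin28a+ libraries, log2 fold changes are Lin28a+ over control, and ± is the standard error of the fit with n = 2 libraries in each group. The deposited input values of all but 1 of the 56 genes were not whole numbers, so levels are compared between libraries for a gene and not between genes. DESeq2 called 27 genes higher and 1 lower. The 2 Lin28a+ input libraries differed from each other by no more than sampling noise over all genes, and with both averaged into 1 sample 35 genes were higher and 3 lower. Leaving out 1 of the 4 libraries removed the call of Bub1, Kif4, Kif14, Ncapg, Nusap1, Pttg1, Cit or Mki67, depending on the library, and left between 34 and 35 genes higher and between 2 and 3 lower.

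**Figure D1:**
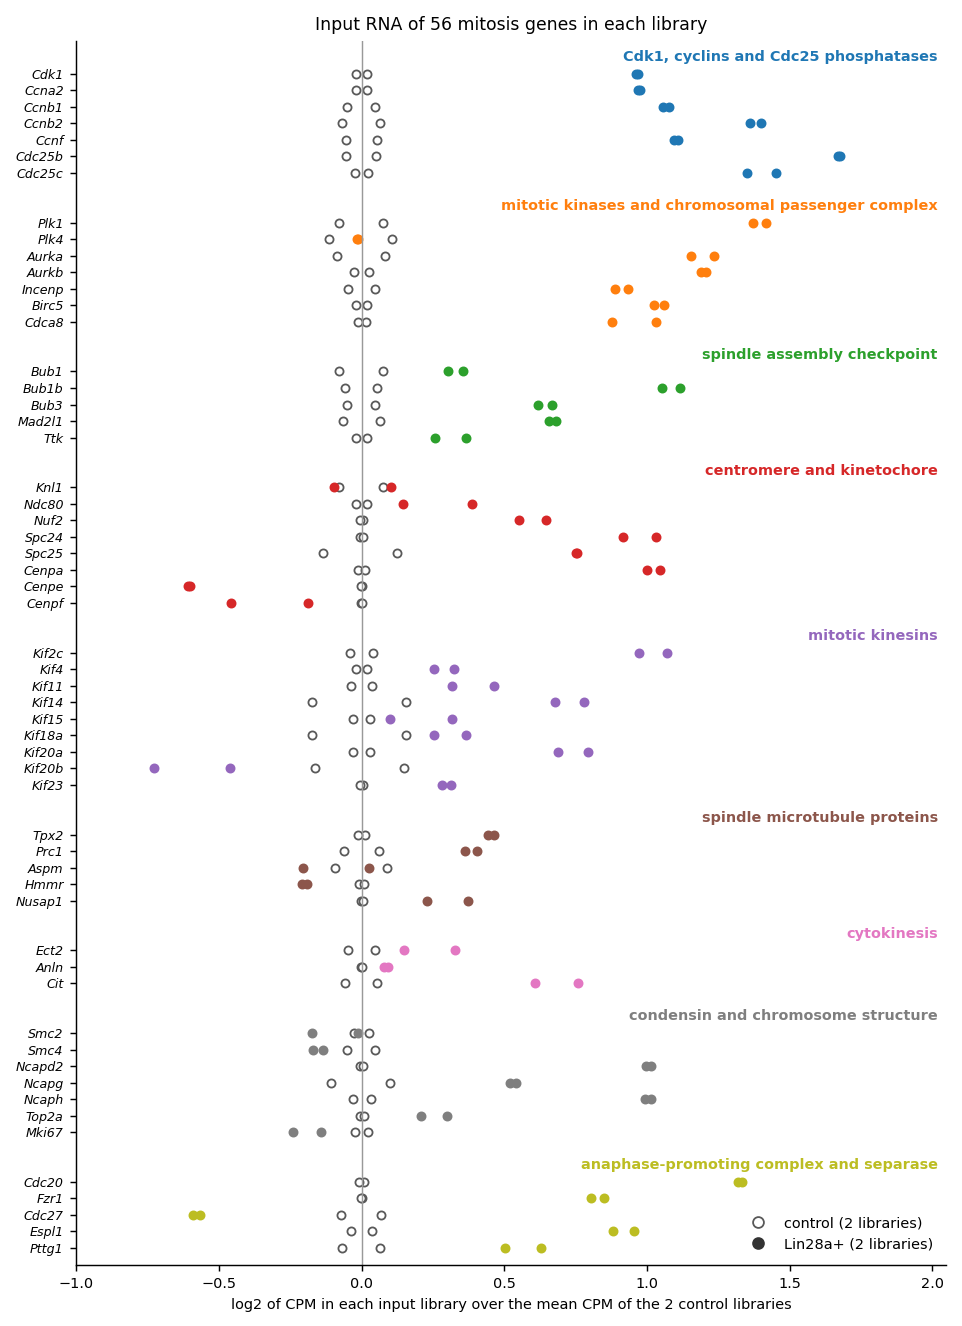
Input RNA of each of the 56 genes (rows, grouped by role) in every library, as the log2 of its CPM over the mean CPM of the 2 control libraries. Open circles are control libraries, which lie near 0, and filled circles are Lin28a+ libraries, which lie furthest to the right for Cdc25b and to the left of 0 for Cenpe, Kif20b, Cdc27, Cenpf and Mki67, among others.

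All 7 genes of the group of Cdk1, cyclins and Cdc25 phosphatases were higher, and their log2 fold changes had a median of 1.10. Cdk1, the kinase that drives entry into mitosis, stood at 75.5 and 73.4 CPM in control libraries and at 145 and 146 CPM in Lin28a+ libraries. Ccnb1, which encodes the cyclin B1 that activates Cdk1, stood at 63.9 and 68.4 CPM against 140 and 138 CPM. For both genes the Lin28a+ libraries lay close together and well above the control libraries, with log2 fold changes of 0.97 ± 0.032 (adjusted p = 1.39e-05) and 1.06 ± 0.041 (adjusted p = 2.15e-05). Cdc25b, a phosphatase that removes the inhibitory phosphates of Cdk1, had the largest change of the 56 genes. It stood at 31.1 and 33.5 CPM in control against 103 and 103 CPM in Lin28a+ libraries, which is a 3.18-fold difference (log2 1.67 ± 0.046, adjusted p = 8.90e-06). The other phosphatase, Cdc25c, was 2.64-fold higher, Ccnb2 2.61-fold, Ccnf 2.14-fold and Ccna2, the cyclin A2 of S phase and early mitosis, 1.96-fold. Named pseudogenes exist for Ccnb1, Ccnb2 and Kif4, and whether reads were shared with them is not given in the sources used here.

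Of the 7 mitotic kinases and members of the chromosomal passenger complex, 6 were higher, with a median of 1.04 over the group. Birc5 (survivin), a subunit of the passenger complex, had the smallest p of the group. It stood at 99.8 and 97.0 CPM in control against 200 and 205 CPM in Lin28a+ libraries (log2 1.04 ± 0.032, adjusted p = 1.14e-05). The groups did not overlap. Plk1, the polo-like kinase of mitotic entry and spindle assembly, was 2.62-fold higher, Aurka, the spindle pole kinase, 2.28-fold and Aurkb, the kinase of the passenger complex, 2.29-fold. The passenger subunits Cdca8 (borealin) and Incenp were 1.94-fold and 1.88-fold higher. Plk4, which controls the duplication of centrioles, stood at 5.99 and 5.15 CPM in control against 5.50 and 5.52 CPM in Lin28a+ libraries, so the groups overlapped (log2 -0.01 ± 0.13, adjusted p = 0.98).

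In the spindle assembly checkpoint, 4 of 5 genes rose, and the median of the 5 was 0.65. Bub1b, which encodes BubR1, a subunit of the mitotic checkpoint complex, stood at 51.7 and 47.8 CPM in control against 108 and 103 CPM in Lin28a+ libraries (log2 1.09 ± 0.051, adjusted p = 3.74e-05). This was the largest change among checkpoint genes, and the groups were well apart. Mad2l1 and Bub3, the other inhibitors of Cdc20 in that complex, were 1.59-fold and 1.56-fold higher. Bub1, a kinetochore kinase, was 1.26-fold higher (adjusted p = 0.024), and this call was lost with DESeq2, without Lin28a+ library a or b and without control replicate 2. Ttk, the kinase that starts checkpoint signalling, had a log2 fold change of 0.31 ± 0.094 that did not pass the test (adjusted p = 0.22).

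Centromere and kinetochore genes included 4 of 8 that were higher and 1, Cenpe, that was lower, with a median of 0.44. Cenpa, the histone H3 variant that marks the centromere, stood at 24.7 and 25.1 CPM in control against 51.5 and 49.9 CPM in Lin28a+ libraries (log2 1.02 ± 0.049, adjusted p = 4.10e-05). Cenpe, a kinesin that carries chromosomes to the spindle equator, stood at 14.05 and 13.999 CPM in control against 9.24 and 9.20 CPM in Lin28a+ libraries. It fell by 0.60 ± 0.072 on the log2 scale (adjusted p = 0.0029), and this call was lost with DESeq2. Of the Ndc80 complex, which binds microtubules, Spc24, Spc25 and Nuf2 were 1.96-fold, 1.67-fold and 1.51-fold higher, while Ndc80 itself had a log2 fold change of 0.27 ± 0.11 (adjusted p = 0.21). Knl1, the kinetochore scaffold, had a log2 fold change of 0.0096 ± 0.11. Cenpf, a large protein of the outer kinetochore, stood at 13.5 and 13.5 CPM against 9.83 and 11.9 CPM (log2 -0.32 ± 0.10, adjusted p = 0.12).

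Of the 9 mitotic kinesins, 5 were higher and 4 did not pass the test, with a median of 0.30. Kif2c, the microtubule-depolymerising kinesin MCAK that corrects wrong attachments, stood at 18.7 and 17.7 CPM in control against 35.8 and 38.2 CPM in Lin28a+ libraries (log2 1.02 ± 0.065, adjusted p = 9.54e-05). Kif20a, of the central spindle, and Kif14, of the midbody, were 1.67-fold and 1.64-fold higher. Kif11, the motor Eg5 that separates the spindle poles, was 1.31-fold higher and the chromokinesin Kif4 1.22-fold. The calls of Kif4, Kif11 and Kif14 were lost with DESeq2, as were those of Spc25, Ncapg and Pttg1. Kif20b was the kinesin with a negative value, at 2.997 and 2.41 CPM in control against 1.97 and 1.64 CPM in Lin28a+ libraries (log2 -0.57 ± 0.235, adjusted p = 0.24). The log2 fold changes of Kif15, Kif18a and Kif23, between 0.21 and 0.30, did not pass the test.

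Among the 5 spindle microtubule proteins, 3 were higher, with a median of 0.30. Tpx2, which activates Aurora A on the spindle, stood at 50.95 and 50.04 CPM in control against 68.6 and 69.7 CPM in Lin28a+ libraries (log2 0.45 ± 0.039, adjusted p = 2.74e-04). Prc1, which bundles the microtubules of the central spindle, and Nusap1 were 1.30-fold and 1.23-fold higher, and both calls were lost with DESeq2. Prc1 shares 21669 bases of the genome with the gene Rccd1. Other long overlaps were those of Kif4 with the long non-coding RNA gene Gm52438 (62763 bases), Cit with the long non-coding RNA genes Gm42008 (7051 bases) and Gm36185 (4878 bases), Kif20a with Cdc23 (4930 bases), Cdc27 with Myl4 (4604 bases) and Ncapg with Lcorl (3367 bases). The counts of these genes are uncertain to that extent, since whether counting used strand is not given in the sources used here. Aspm, a spindle pole protein, stood at 15.2 and 13.4 CPM in control against 12.4 and 14.5 CPM in Lin28a+ libraries, and the groups overlapped (log2 -0.08 ± 0.11). Hmmr had a log2 fold change of -0.20 ± 0.049 (adjusted p = 0.11).

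Of the 3 cytokinesis genes, Cit, the citron kinase of the contractile ring, was higher. It stood at 5.81 and 6.28 CPM in control against 10.22 and 9.20 CPM in Lin28a+ libraries (log2 0.68 ± 0.11, adjusted p = 0.0056), and this call was lost with DESeq2 and without Lin28a+ library a. Ect2, the exchange factor that activates RhoA at the cleavage site, and Anln (anillin) had log2 fold changes of 0.23 ± 0.094 and 0.086 ± 0.040, neither of which passed the test.

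Condensin and chromosome structure genes included 4 of 7 that were higher and 1, Mki67, that was lower, with a median of 0.25. The condensin I subunits Ncapd2 and Ncaph were both 2.01-fold higher and Ncapg 1.43-fold, while Smc2 and Smc4, the ATPases common to both condensins, had log2 fold changes of -0.089 ± 0.074 and -0.16 ± 0.074. Ncapd2 stood at 30.3 and 30.6 CPM in control against 61.5 and 60.7 CPM in Lin28a+ libraries (adjusted p = 3.04e-05). The non-SMC subunits of condensin I thus rose while the values of its ATPases did not pass the test. Top2a, the topoisomerase that untangles sister chromatids, stood at 76.8 and 77.6 CPM in control against 94.9 and 89.1 CPM in Lin28a+ libraries (log2 0.25 ± 0.043, adjusted p = 0.0037), a call that was lost with DESeq2. Mki67, the proliferation marker Ki-67 that coats mitotic chromosomes, stood at 109 and 112 CPM in control against 100 and 93.6 CPM in Lin28a+ libraries. It fell by 0.19 ± 0.044 on the log2 scale (adjusted p = 0.012), a call that was lost with DESeq2, without Lin28a+ library b and without control replicate 2.

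Of the 5 genes of the anaphase-promoting complex and separase, 4 were higher and 1 was lower, with a median of 0.83. Cdc20, the activator that the checkpoint restrains, had the smallest p of the 56 genes. It stood at 104 and 103 CPM in control against 258 and 260 CPM in Lin28a+ libraries, a 2.51-fold difference (log2 1.33 ± 0.027, adjusted p = 5.20e-06). Fzr1, the activator of late mitosis and G1, was 1.77-fold higher, Espl1 (separase) 1.88-fold and its inhibitor Pttg1 (securin) 1.48-fold. Cdc27, a core subunit of the complex, stood at 50.4 and 55.5 CPM in control against 35.2 and 35.8 CPM in Lin28a+ libraries. It fell by 0.58 ± 0.065 on the log2 scale (adjusted p = 6.99e-04), and so differed in direction from both activators of the complex.

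Other mitosis genes, from a list of 93 names, showed a similar count, with 63 of 92 tested higher, 1 lower and a median of 0.57. Foxm1 and Mybl2, transcription factors known to drive mitotic genes, were 2.12-fold and 2.38-fold higher. Foxm1 stood at 22.3 and 22.0 CPM in control against 48.2 and 46.0 CPM in Lin28a+ libraries, and Mybl2 at 15.7 and 16.1 against 35.6 and 40.5 CPM. E2f2, an activator of cell cycle transcription, had the smallest p of that list (log2 3.12, from 7.31 and 6.92 to 60.9 and 63.0 CPM). Wee1, the kinase that holds Cdk1 inactive, was the gene of that list that was lower, at 174 and 180 CPM in control against 145 and 135 CPM in Lin28a+ libraries.

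The RNA change was unequal between long and short mitosis genes, and so was binding by Lin28a and Igf2bp3. The 28 genes below the median length on the genome (28.9 kb) had a median log2 fold change of 0.97, with 26 higher and 1 lower, and the 28 longer genes 0.28, with 12 higher and 2 lower. Over all genes tested, the medians on either side of that length were 0.17 and -0.24, with 37.5% higher and 18.95% lower among the shorter genes and 15.1% and 42.2% among the longer. Across the 56 genes the fold change correlated with the log2 length at r = -0.58 (Spearman's rho = -0.65), and across 10948 genes at r = -0.26 (rho = -0.34). These values share the same 4 libraries and are a description across genes, which are not replicates. Of the longer mitosis genes 27 had a Lin28a-RIP peak, and of the shorter 9 did, where 41.1% and 15.3% of all genes on either side of that length had one. Whether length, binding or the shared libraries account for the pattern was not tested.

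**Figure D2:**
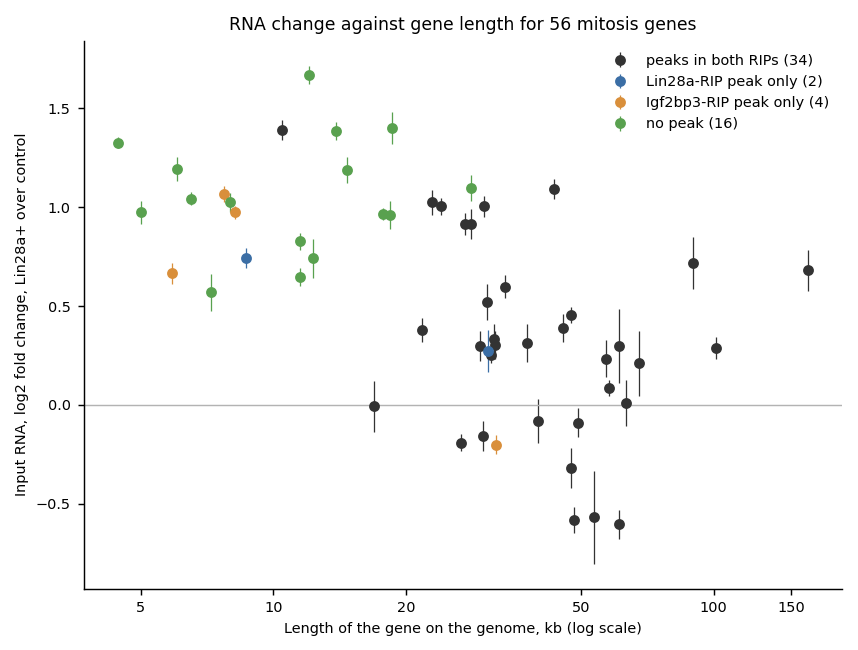
The log2 fold change of input RNA (Lin28a+ over control, bars are standard errors of the fit, n = 2 libraries per group) against the length of each gene on the genome in kb (log axis), coloured by the RIP tables that list a peak. The 16 genes without a peak all lie above 0, with a median of 1.03, and the shortest gene below 0, Plk4, is 16.9 kb long.

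The 34 mitosis genes with peaks of both proteins included 18 that were higher in RNA and 3 that were lower, with a median of 0.30, against a median of -0.28 over all 2286 genes with both, of which 15.3% were higher and 48.9% lower. The 16 with neither were all higher, with a median of 1.03, against 0.14 over all 7022 genes with neither, of which 33.6% were higher and 20.4% lower. The 3 genes that fell, Cenpe, Mki67 and Cdc27, all had peaks of both proteins. The 16 without a peak were Cdk1, Ccnb2, Ccnf, Cdc25b, Cdc25c, Aurka, Aurkb, Birc5, Cdca8, Bub3, Spc24, Spc25, Cenpa, Cdc20, Fzr1 and Pttg1, with lengths of 4.44 to 28.2 kb. Those with both had lengths of 10.4 to 163.7 kb. Ccnb2, Cdc25c, Birc5 and Spc25 appeared in none of the RIP tables.

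The Lin28a-RIP libraries of Lin28a+ MuSCs addressed which of these transcripts were bound by Lin28a, an RNA-binding protein of embryonic and progenitor cells. Of the 56 genes 36 had at least 1 peak, and 25.3% of all genes tested in RNA had one. The 36 genes held 506 of the 21616 peaks, with a median of 14 per gene, against 3 over all 3491 genes with a peak. Of the 36, 26 (72.2%) had 10 or more peaks, against 19.4% of all genes with a peak. The peaks of mitosis genes had a median width of 299 bases, and 492 of the 506 lay within their gene. Lin28a-RIP of control MuSCs was not analysed here, so these are positions without a comparison between groups.

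Cenpe had the most Lin28a-RIP peaks, 31, followed by Cit with 27 and Aspm with 26. The tallest peak of Cenpe, at chr3:135246305-135247605 (mm10), held 3910 and 3570 counts in the 2 libraries and 9.48% of the gene's signal, so its signal was spread over many peaks. In Mki67 a peak of 7030 bases at chr7:135694237-135701266 held 67759 and 64379 counts and 72.4% of the signal of the gene. In Knl1 a peak of 4677 bases at chr2:119067936-119072612 held 10597 and 9662 counts and 75.1% of the signal. In Aspm 9 of the 26 peaks lay outside the RefSeq limits of the gene, as did 2 of 3 in Plk4, the 1 peak of Nusap1, and 1 peak each in Smc4 and Ncapg.

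Igf2bp3, a protein that binds and stabilises mRNAs, had a peak in 38 of the 56 genes, and 32.8% of all genes tested had one. The 38 genes held 308 of 19465 peaks, with a median of 7 per gene against 3 over all 4524 genes with a peak. Top2a had the most, 22, followed by Smc2 with 20 and by Cenpe, Aspm and Ect2 with 18 each. Within their gene lay 293 of the 308 peaks, but only 9 of the 18 of Aspm and 2 of the 4 of Incenp. Both proteins had a peak in 34 genes, and 20.2% of all genes tested had peaks of both. Ndc80 and Kif20a had Lin28a-RIP peaks alone, and Ccna2, Ccnb1, Mad2l1 and Hmmr had Igf2bp3-RIP peaks alone.

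**Figure D3:**
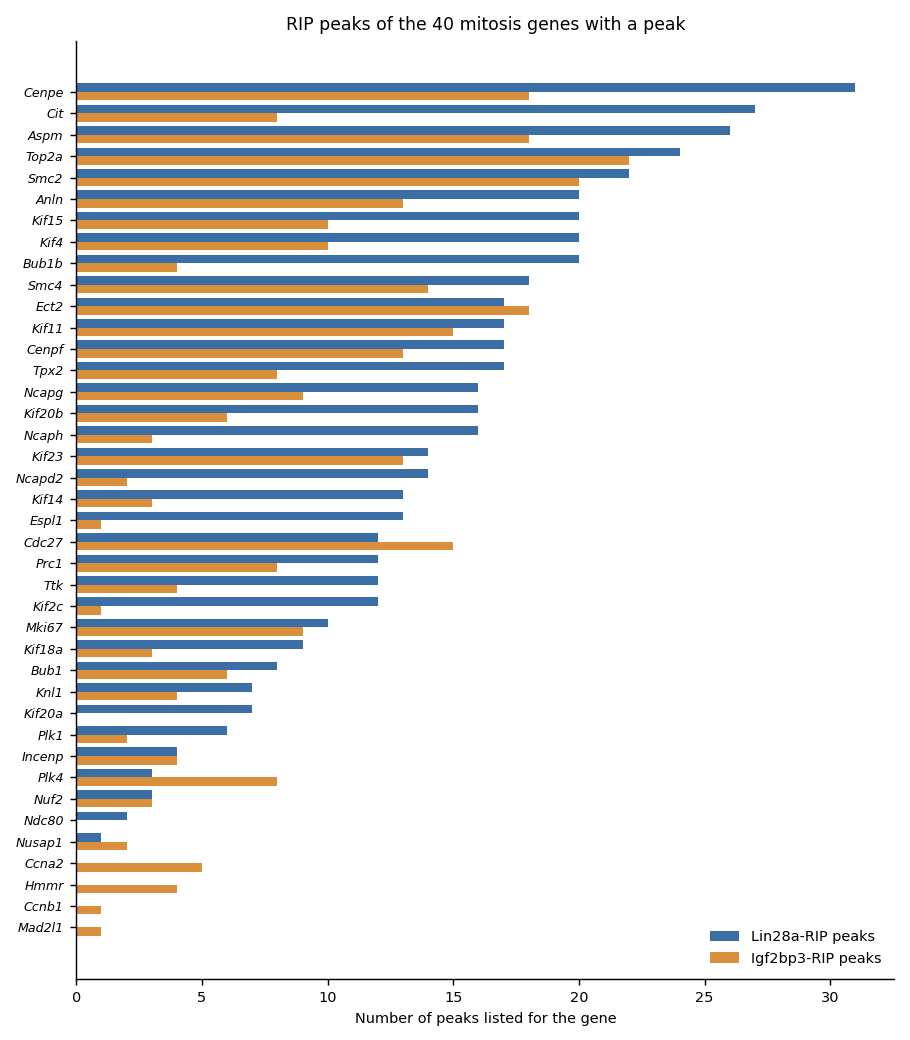
Number of Lin28a-RIP peaks (blue, 2 Lin28a+ libraries) and Igf2bp3-RIP peaks (orange, tables of both groups) listed for each of the 40 mitosis genes with a peak. Cenpe has the most Lin28a-RIP peaks (31) and Top2a the most Igf2bp3-RIP peaks (22), and most genes have more of the former than of the latter.

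Of the 506 Lin28a-RIP peaks of mitosis genes, 275 (54.3%) shared at least 1 base with a peak of Igf2bp3-RIP, against 52.4% of all Lin28a-RIP peaks. Of the 308 Igf2bp3-RIP peaks, 277 (89.9%) overlapped a Lin28a-RIP peak, against 60.4% of all, a share that also counts peaks of genes without any Lin28a-RIP peak. Among Igf2bp3-RIP peaks of genes that also had a Lin28a-RIP peak, a set chosen after seeing the data, the shares were 93.3% and 77.2%. For Lin28a-RIP peaks of genes that also had an Igf2bp3-RIP peak, likewise chosen, 55.3% of those of mitosis genes and 57.5% of all overlapped an Igf2bp3-RIP peak. In Mki67 and Knl1 the widest peaks of both proteins began and ended at nearly the same positions. In Mki67 the Igf2bp3-RIP peak lay at chr7:135694262-135701265 with 75.6% of the gene's signal. It held 16123 and 27498 counts in control and 23789 and 50003 counts in Lin28a+ libraries. In Knl1 it lay at chr2:119067941-119072605 with 83.9% of the signal. The peaks of Ccna2 lay apart from this pattern, with 5 Igf2bp3-RIP peaks and none of Lin28a. Its tallest, at chr3:36564958-36565718, held 1202 and 4054 counts in control and 2649 and 7178 counts in Lin28a+ libraries.

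Set against the input of Lin28a+ MuSCs, the summed Lin28a-RIP peaks of the 36 genes had a median log2 ratio of 4.02 (CPM + 1), against 1.71 over all 3016 genes with both values. The ratio was highest for Cenpf at 6.92 and Cenpe at 6.77 and lowest for Plk1 at 0.20 and Nuf2 at 0.66. Among all genes, Cenpf stood at percentile 98.3 and Plk1 at percentile 29.0. Igf2bp3-RIP over input had a median of 2.75 over 38 genes in Lin28a+ MuSCs and of 2.88 in control MuSCs, against 1.73 and 1.46 over all genes. Genes with long transcripts can hold more peaks, and the input values are not per length, so a ratio is not a measure of affinity.

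The m6A-RIP libraries addressed whether the methylated RNA of these genes changed. The antibody recovered rows of 34 of the 56 genes, against 65.5% of all genes tested. With the rows of a gene summed, 23 of the 34 were higher in Lin28a+ MuSCs and 5 were lower, where 32.5% and 33.7% of all 9413 genes were higher and lower. The median log2 fold change was 0.50, against 0.0069 over all genes. Scaled by total counts instead, 18 of the 34 were higher and 5 lower, where 2390 and 3765 of all 9413 genes were. All genes then had a median of -0.095. All 23 genes that were higher in m6A-RIP were also higher in RNA, and no gene was called in opposite directions. These fold changes are of the recovered RNA, before any comparison with the input.

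**Figure D4:**
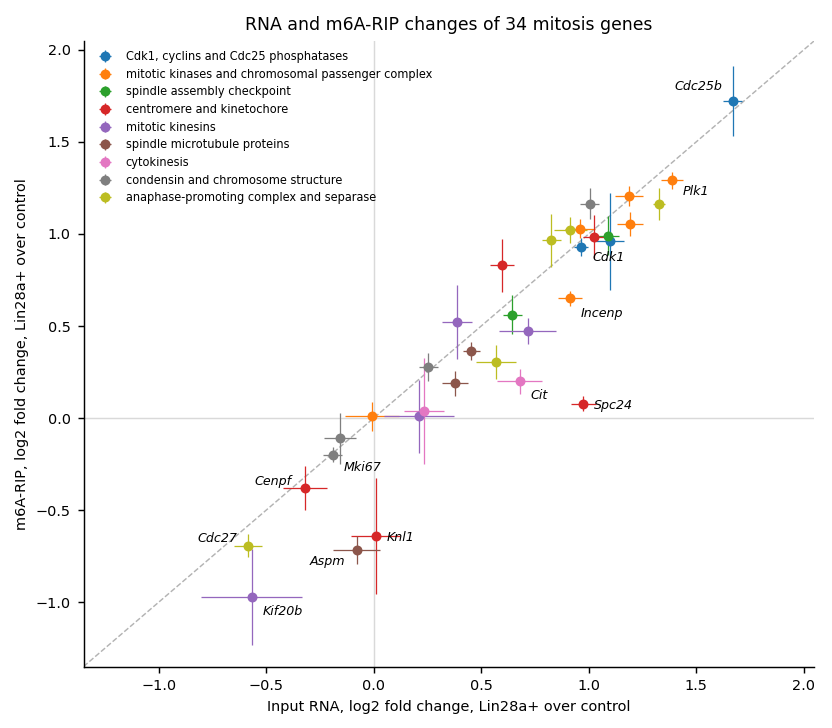
The log2 fold change in m6A-RIP against that in input RNA for the 34 mitosis genes with m6A-RIP rows (bars are standard errors of the fit, n = 2 libraries per group and assay, dashed line marks equal changes). Most genes lie near the line, while Spc24 (RNA 0.97, m6A-RIP 0.08) and Aspm (-0.08, -0.72) lie below it.

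Cdk1 in m6A-RIP stood at 120 and 127 CPM in control against 243 and 228 CPM in Lin28a+ libraries (log2 0.93 ± 0.047, adjusted p = 4.72e-09), and all of its 3 rows were higher. Incenp had 7 rows, all higher, with row log2 fold changes from 0.56 to 1.07. Cdc25b again had the largest change of the summed values, from 3.49 and 5.16 CPM to 13.8 and 14.2 CPM (log2 1.72 ± 0.19). The kinases Plk1, Aurka and Aurkb were 2.45-fold, 2.31-fold and 2.08-fold higher, and Espl1 was 2.03-fold higher. Top2a stood at 26.4 and 26.9 CPM against 31.3 and 33.2 CPM (log2 0.28 ± 0.078, adjusted p = 0.0073), and this call was lost without Lin28a+ library b and with total counts.

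The 5 genes that fell in m6A-RIP were Aspm, Cdc27, Mki67, Kif20b and Cenpf. Aspm stood at 39.8 and 40.2 CPM in control against 23.5 and 24.97 CPM in Lin28a+ libraries (log2 -0.72 ± 0.076, adjusted p = 3.73e-06). Cdc27 stood at 76.4 and 77.8 CPM against 50.2 and 45.4 CPM (log2 -0.69 ± 0.064, adjusted p = 1.16e-06), and both of its rows fell. For these genes every Lin28a+ library was below every control library. Mki67 stood at 148 and 146 CPM against 126 and 130 CPM (log2 -0.20 ± 0.041, adjusted p = 9.71e-04). Kif20b stood at 2.85 and 3.08 CPM against 1.39 and 1.60 CPM (log2 -0.97 ± 0.26, adjusted p = 0.0056). Cenpf stood at 23.3 and 24.4 CPM against 20.4 and 16.3 CPM (log2 -0.38 ± 0.12, adjusted p = 0.013), and this call was lost without Lin28a+ library b. All 5 had peaks of both Lin28a and Igf2bp3, as did 22 of the 34 genes with an m6A-RIP row.

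Row by row, 49 of the 76 m6A-RIP rows of mitosis genes were higher and 10 were lower, where 30.0% and 31.8% of all 18881 rows were. Scaled by total counts instead, these were 38 and 13, where 3842 and 7638 of all 18881 rows were, and all rows had a median of -0.15. Of the 17 genes with at least 2 rows, 10 had every row higher, a share that was not computed over all genes. Spc24 was the gene with rows in both directions, 2 higher and 3 lower. The 2 rows that rose held 46.7 and 47.5 CPM in control against 96.8 and 92.2 CPM in Lin28a+ libraries, and 12.9 and 13.4 against 21.7 and 20.1 CPM. The row with the most signal among the 3 that fell stood at 72.2 and 81.0 CPM against 61.5 and 62.8 CPM. In Aspm, 1 of 4 rows fell, from 23.0 and 22.3 CPM to 9.32 and 10.17 CPM (log2 -1.21 ± 0.12, adjusted p = 9.17e-07), and the others did not pass the test.

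Whether m6A-RIP changed beyond the RNA was tested by the interaction of cells and assay in 1 model. None of the 34 genes was higher relative to input and 2 were lower, where 3.04% and 4.09% of all 7950 genes were. At an unadjusted p under 0.05, 5 of the 34 (14.7%) passed, where 17% of all genes did, and DESeq2 called 1 lower. Spc24 had a log2 difference of -0.91 ± 0.078 (adjusted p = 4.21e-05). Its RNA stood at 33.7 and 33.95 CPM in control against 69.2 and 63.8 CPM in Lin28a+ libraries, while its m6A-RIP stood at 219 and 229 against 234 and 238 CPM. For Aspm the difference was -0.65 ± 0.15 (adjusted p = 0.021), a call that was lost with DESeq2, without Lin28a+ input library a or b and without control input replicate 2. The median over the 34 genes was -0.11, against -0.028 over all genes, and it was -0.064 without Lin28a+ m6A-RIP library b. For Cdk1 the difference was -0.05 ± 0.072 and for Plk1 -0.11 ± 0.064.

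Igf2bp3-RIP was compared between the groups to find whether its recovery of these transcripts changed. No peak of the 308 and no gene of the 38 passed the test (edgeR), where 0.0616% of all peaks were higher and 0.0616% lower, and 0.133% and 0.155% of all genes. At an unadjusted p under 0.05, 2 of the peaks and 3 of the genes passed (0.649% and 7.89%), where 5.22% of all peaks and 8.44% of all genes did, and DESeq2 called none of either. The log2 fold change was positive for 268 of the peaks and 33 of the genes, with a median of 0.23 for both, against -0.013 and -0.011 over all. These medians depended on single libraries. Without control replicate 2 they fell to 0.14 for peaks and 0.11 for genes, with 197 peaks and 26 genes positive, and without control replicate 1 the median for peaks was 0.36. The common biological coefficient of variation, from a fit without a replicate term, was 27.9% for peaks, against 2.48% for input RNA. In that fit the same change was thus much harder to detect. On simulated counts with a log2 change of 1, 24.8% of changed Igf2bp3-RIP genes were called.

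The Igf2bp3-RIP genes with the smallest p were Ccna2, Plk4 and Mad2l1, none of which passed the adjusted threshold. Ccna2 stood at 335 and 369 CPM in control against 576 and 509 CPM in Lin28a+ libraries (log2 0.62 ± 0.21, adjusted p = 0.49). Plk4 stood at 277 and 319 CPM against 438 and 433 CPM (log2 0.54 ± 0.20, adjusted p = 0.52), with 53.4% of the signal in a peak at chr3:40790305-40796095, outside the RefSeq limits of the gene, and Mad2l1 at 59.6 and 51.1 CPM against 86.1 and 78.3 CPM. For these genes the Lin28a+ libraries lay above the control libraries. For Plk1, at 104 and 65.5 CPM against 101 and 63.1 CPM, the replicates of a group differed by more than the groups did.

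**Figure D5:**
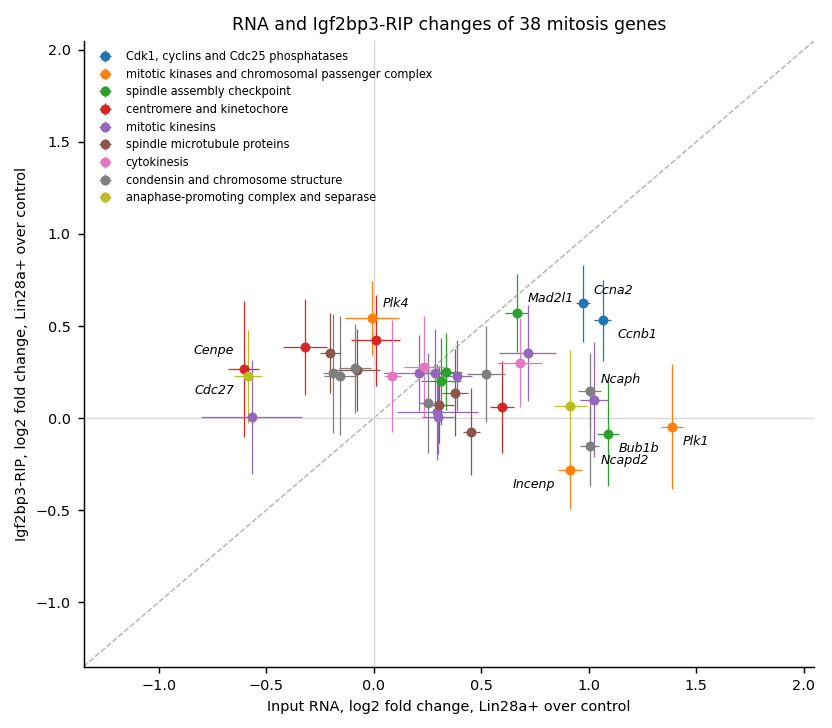
The log2 fold change in Igf2bp3-RIP, peaks summed per gene, against that in input RNA for the 38 mitosis genes with an Igf2bp3-RIP peak (bars are standard errors of the fit, n = 2 libraries per group and assay, dashed line marks equal changes). The RIP values lie between -0.28 and 0.62 over the whole range of RNA changes, and Plk1, Incenp, Bub1b and Ncapd2 lie furthest below the line.

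Relative to input, none of the 38 genes was higher in Igf2bp3-RIP and 3 were lower, where 0.357% and 0.688% of all 3927 genes were. The 3 were Incenp (log2 -1.43 ± 0.18, adjusted p = 0.028), Ncapd2 (-1.39 ± 0.19, adjusted p = 0.037) and Ncaph (-1.08 ± 0.17, adjusted p = 0.047). The RNA of each was higher in Lin28a+ MuSCs. For Incenp, 2 of the 4 summed Igf2bp3-RIP peaks lay within the RefSeq limits of the gene. The RIP of Incenp stood at 78.7 and 76.1 CPM in control against 68.7 and 58.5 CPM in Lin28a+ libraries. That of Ncapd2 stood at 104 and 114 against 108 and 88.0 CPM, and that of Ncaph at 62.4 and 58.5 against 64.1 and 69.9 CPM. With any of the 4 input libraries left out, a group kept a single input library and calls were lost over all genes, these 3 included. The median over the 38 genes stayed between -0.42 and -0.37 in those fits. All 3 calls were also lost when libraries were scaled by total counts, and DESeq2 called 4 genes lower without Ncaph. Without Lin28a+ Igf2bp3-RIP replicate 1, 1 gene was higher and 10 were lower, where 282 (7.19%) and 280 (7.14%) of all 3924 genes were. Plk1 had the largest difference, -1.67 ± 0.40, without passing the test (adjusted p = 0.082). The median over the 38 genes was -0.40, against 0.027 over all genes, and 11 of the 38 were positive. These fits, like those of Igf2bp3-RIP alone, held no term for the replicate number. Calls with such a term differed and are given further below.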

How the data were processed

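MuSC input, m6A-RIP, Igf2bp3-RIP and Lin28a-RIP libraries were analysed from the tables the authors deposited. Per the labels and the methods, reads were trimmed and aligned with HISAT2 (version 2.0.4). The notes name GRCh38 and mm10, and peak positions were read as mm10, since nearly all fell within the RefSeq mouse gene they name. The authors deposited estimated counts per input gene, whose values need not be whole numbers (5.998% of genes had whole values), and whole-number counts per RIP peak or row. The counting program and peak thresholds are not given in the sources used here. In the input table, Lin28a+ columns are headed with numbered m6A-RIP titles, and in the m6A-RIP table both have the same title. They were taken as the Lin28a+ libraries of their table, without a replicate number, and are called library a and b.

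Input values were rounded, RIP rows were also summed per gene, and edgeR 4.0.16 (R 4.3.3) quasi-likelihood tests were run with TMM factors and filterByExpr, at a threshold of 0.05 on the p adjusted by Benjamini-Hochberg over all features. Change relative to input was the interaction term of cells and assay in 1 model of both. Alternatives were DESeq2 1.42.0, other scalings and filters, and leaving out each library. Over all genes, chi-square divided by its degrees of freedom was 1.01 between the 2 Lin28a+ input libraries, within sampling noise, and 4.70 between the control libraries. Over genes with whole values, it was 1.80 and 1.70, so the Lin28a+ libraries were kept as separate samples, and averaging them into 1 was added as an alternative after the data were seen. Tests were checked on simulated counts, in which 89% of 82 RNA genes changed by a log2 of 1 were called (11210 genes). The genes named with full values were fixed by rule: Cdk1, Ccnb1, Top2a, Mki67, the smallest p of each role group, every member that fell in RNA or m6A-RIP, the members called relative to input, and the most Lin28a-RIP peaks. Values of other genes in every library, such as those of Plk4, Plk1, Ccna2 and Mad2l1, were added after the values were seen. The mitosis genes and lists were chosen with earlier results of these data known.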

Additional observations from a re-analysis of the deposited data

How the results depend on the processing

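Directions and call counts were recomputed under other tools, scalings and filters and without each library. Over all genes, DESeq2 called 1479 higher and 1560 lower in RNA, where edgeR called 3184 and 3248. It called 1 mitosis gene lower in RNA where edgeR called 3, and 1 lower in m6A relative to input where edgeR called 2. Without each library in turn, the genes lower in m6A relative to input numbered 1 to 3, and the genes called in Igf2bp3-RIP relative to input 0 to 11. When any 1 of the 4 input libraries was left out, calls in Igf2bp3-RIP relative to input were lost over all genes, not only in mitosis genes. The median over the 38 genes then stayed between -0.42 and -0.37. Scaled by total counts, 0 of the 38 were called, where 33 of all 3927 genes were higher and 13 lower. The labels give both groups the same replicate numbers, which in both groups only the Igf2bp3-RIP columns carry under their own titles. Across 19465 peaks, the difference of replicate 2 from replicate 1 correlated between the groups at r = 0.69, and with 2 numbers this does not show a pairing. With a replicate block, 17 peaks were called (15 higher, 2 lower) and 2 genes, Ccna2 and Plk4, were higher, and relative to input 21 genes were called (2 higher, 19 lower). With the same block, 3.94% of all peaks were higher and 6.28% lower, 3.51% and 4.66% of all genes, and 15.9% and 17.3% of genes relative to input. No paired analysis was possible for input and m6A-RIP because the Lin28a+ input columns bear the numbers of m6A-RIP titles and the Lin28a+ m6A-RIP columns share 1 title.

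Values near 0 changed sign. In RNA, Plk4 stood at 0.0202 with total counts, 0.0043 without a filter, 0.013 with the Lin28a+ input libraries averaged into 1 sample (an alternative chosen after seeing the data) and between -0.12 and 0.092 over the libraries left out. Knl1 stood at -0.00171 with DESeq2, -0.014 with at least 10 counts in every library and between -0.093 and 0.11 over the libraries left out, and Aspm between -0.20 and 0.032. In m6A-RIP, total counts gave -0.061 for Ect2, -0.093 for Kif15, -0.093 for Plk4 and -0.024 for Spc24, and the libraries left out gave -0.30 to 0.58 for Ect2, -0.011 to 0.027 for Kif15 and -0.081 to 0.0997 for Plk4. The cause was not tested. The other counts of called mitosis genes, peaks or rows stayed within 1.5 times of the values given. Counts at an unadjusted p moved more: from 2 to between 0 and 62 Igf2bp3-RIP peaks, from 3 to between 0 and 6 genes, and from 5 to between 2 and 7 genes in m6A relative to input.

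The limits are the number of libraries and, in Igf2bp3-RIP, the spread between them. The part of sequencing depth was not tested. With 2 libraries per group, standard errors rest on a spread shared among genes. In Igf2bp3-RIP, simulated log2 changes of 1 were called for 7.27% of peaks.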

Other observations

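Genes that act earlier in the cell cycle than mitosis were also mostly higher in input RNA. Of 23 genes of G1/S and DNA synthesis, 21 were higher in Lin28a+ MuSCs and 1 was lower, where 28.1% and 28.7% of all genes were. Their median log2 fold change was 0.91. Mcm6, a subunit of the replicative helicase, had the smallest p and stood at 79.6 and 78.0 CPM in control against 156 and 156 CPM in Lin28a+ libraries. Rrm2, a subunit of ribonucleotide reductase, was the gene that fell, from 581 and 583 CPM to 483 and 483 CPM. Their m6A-RIP rows, present for 13 of the 23, were higher for 11 genes and lower for 1, where 32.5% and 33.7% of all genes were.

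Among 15 cell cycle inhibitors, 6 were higher and 6 lower, with a median of -0.12, where 28.1% and 28.7% of all genes were. Cdkn2a, which encodes p16 and p19Arf, stood at 326 and 323 CPM in control against 70.4 and 68.1 CPM in Lin28a+ libraries (log2 -2.23), and Cdkn2b at 98.2 and 101 CPM against 28.7 and 31.5 CPM. Cdkn1a, the p21 inhibitor of cyclin-dependent kinases, stood at 778 and 799 CPM against 527 and 536 CPM. In the other direction, Gas1 had the smallest p, at 196 and 191 CPM against 612 and 615 CPM, and Cdkn1c (p57) stood at 0.56 and 0.32 CPM against 11.2 and 10.4 CPM. These genes are named by the smallest p or, for Cdkn2b, Cdkn1a and Cdkn1c, after their values were seen.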
